A study of Mus musculus with 2 samples.

Results

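Retained-intron transcripts are annotated RNA models in which sequence that coding models of the same gene splice out is kept in an exon. The models described here were chosen by their annotation and by their reads: each is a known model of the type retained_intron that had at least 1 read in either library of a long-read RNA sequencing experiment on mouse adrenal gland. They numbered 2147 in 1829 genes, out of 159339 transcript models of any kind with reads and out of 21848 annotated retained-intron models, of which 19701 had no read. Because a read was needed to enter, the detection of these models is a description and not a test.

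Adrenal glands came from male B6CASTF1/J mice, an F1 hybrid strain, at 2 months of age, and the 2 libraries form a single group with no treatment or control. Without spike-in sequences the totals came to 824186 reads for replicate 1 and 656786 for replicate 2. Separate animals are numbered by the biosample labels but not by the library descriptions, so the replicates may be technical. The p-values set the difference between these 2 libraries against read-counting error alone. They do not measure the spread between animals or between replicates. Adrenal identity was checked on markers: the 6 cortex markers summed to 65041 and 68260 CPM in replicates 1 and 2, where CPM is the read count scaled to an equal library total, the 5 medulla markers to 11251 and 12409, and the 3 kidney markers to 7.28 and 9.14.

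In the cell nucleus the spliceosome removes introns, recognising a donor site at the intron's 5' end and an acceptor site at its 3' end. An RNA that keeps an intron is often held in the nucleus, and one that reaches the cytoplasm can be destroyed by nonsense-mediated decay when the intron brings in a stop codon. Genes for splicing regulators themselves, such as the SR proteins and the CLK kinases, are well known for transcripts of this kind.

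To show what such an intron looks like, the retained introns of at most 300 bases in the coding region of the highest-ranked models are printed 5' to 3' on the sense strand, with the first and last 2 bases, the splice-site dinucleotides, in capitals. The sequences come from the GENCODE M21 transcripts on mm10. Pgp-202 (Pgp, a phosphoglycolate phosphatase) keeps the gene's only coding intron at chr17:24471150-24471241 on the plus strand, inside its single exon. Hes6-202 (Hes6, a basic helix-loop-helix regulator) keeps the last of 3 introns at chr1:91412483-91412720 on the minus strand, inside its last exon. Slc1a5-202 (Slc1a5, a neutral amino acid transporter) keeps intron 7 of 8 at chr7:16795953-16796023 on the plus strand, inside an internal exon. Alkbh6-202 (Alkbh6, an AlkB homologue) keeps intron 5 of 6 at chr7:30312389-30312590 on the plus strand, inside an internal exon. Ss18l2-207 keeps intron 1 of 2 at chr9:121710472-121710638 on the plus strand, inside its single exon. That exon starts at 121710467, just before this intron, and also covers intron 2, of 1849 bases. A transcript that starts inside intron 1 was therefore not told apart from one that keeps it. Fbxl6-204 (Fbxl6, an F-box protein) keeps intron 2 of 8 at chr15:76537787-76537916 and intron 1 at chr15:76538076-76538324 on the minus strand, both inside its first exon.
Pgp-202 intron 1: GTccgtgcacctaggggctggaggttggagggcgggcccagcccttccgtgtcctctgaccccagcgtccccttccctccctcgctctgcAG
Hes6-202 intron 3: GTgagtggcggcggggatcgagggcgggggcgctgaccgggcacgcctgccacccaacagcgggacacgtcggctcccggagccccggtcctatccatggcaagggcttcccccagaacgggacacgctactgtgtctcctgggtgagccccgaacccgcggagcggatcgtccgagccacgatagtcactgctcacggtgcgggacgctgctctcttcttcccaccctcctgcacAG
Slc1a5-202 intron 7: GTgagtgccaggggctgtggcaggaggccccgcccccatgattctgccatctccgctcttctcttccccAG
Alkbh6-202 intron 5: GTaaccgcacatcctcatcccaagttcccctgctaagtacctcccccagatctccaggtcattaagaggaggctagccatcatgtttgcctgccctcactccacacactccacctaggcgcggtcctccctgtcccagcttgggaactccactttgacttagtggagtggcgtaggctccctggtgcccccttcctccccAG
Ss18l2-207 intron 1: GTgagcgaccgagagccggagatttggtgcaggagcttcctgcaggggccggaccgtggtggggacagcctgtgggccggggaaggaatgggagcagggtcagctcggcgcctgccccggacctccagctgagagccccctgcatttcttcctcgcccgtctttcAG
Fbxl6-204 intron 2: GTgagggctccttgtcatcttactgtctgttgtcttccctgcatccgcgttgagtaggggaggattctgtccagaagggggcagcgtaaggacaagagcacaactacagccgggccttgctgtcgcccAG
Fbxl6-204 intron 1: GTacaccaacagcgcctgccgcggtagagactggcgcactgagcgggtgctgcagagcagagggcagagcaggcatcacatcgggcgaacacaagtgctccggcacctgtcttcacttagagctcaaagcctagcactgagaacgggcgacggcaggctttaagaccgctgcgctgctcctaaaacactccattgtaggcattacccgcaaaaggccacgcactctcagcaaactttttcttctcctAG

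All of these introns begin with GT and end with AG. Across the 1215 introns of coding models that lay whole inside an exon of a read retained-intron model, 1186 (97.6%) had GT and AG, 17 had GC and AG, 2 had AT and AC, and 10 had other ends. Their median GC content was 53.6%, with quartiles of 47.4% and 59.6%, beside a median of 54.2% in the leading coding models of the same 679 genes. Of the 888 introns with a reading frame in the leading coding model, 786 (88.5%) held a stop codon in the frame of the exon before them. The 102 others were short: their median length was 90.5 bases, against 286 bases for those with a stop, and 17 of them had neither a stop nor a length that would shift the frame. The 238-base Hes6 intron printed above was among those without a stop, and the other printed introns each held one.

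The read retained-intron models took up a small part of the adrenal long-read libraries. Replicate 1 placed 5463 reads on them, 0.663% of the library (Wilson 95% interval 0.646 to 0.681%), and replicate 2 placed 4244 reads, 0.646% (0.627 to 0.666%), so the intervals overlapped. The mean was 0.655 ± 0.0118% (SD, n = 2), against 0.222 ± 0.0252% for 669 nonsense-mediated decay models, 0.305 ± 0.0340% for 867 processed_transcript models and 74.2 ± 0.0697% for 17240 protein-coding models. In genes with 20 reads or more in each library, 16.2% of annotated retained-intron models had a read, compared with 16.0% of nonsense-mediated decay models, 9.06% of processed_transcript models and 50.2% of protein-coding models. Most were seen rarely: 1148 of the 2147 had a single read over both libraries, 729 were seen in both, 54 had at least 20 reads in sum and 6 had at least 100. The 10 models with most reads held 31.0% of all reads on the class.

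How far a read shows retention depends on its splice junctions, since the deposited tables give the annotated ends of a known model and not those of each read. By that measure the models fell into 4 main kinds. In 351 models the splice chain was neither a whole coding chain of the gene nor an unbroken part of one. They took 715 reads (0.0868% of the library, interval 0.0806 to 0.0933%) in replicate 1 and 1012 reads (0.154%, 0.145 to 0.164%) in replicate 2. In genes with no coding model, which held 41 models with 68 and 38 reads, any spliced model was placed in this kind. Another 844 models had the chain of a coding model without its first introns, and took 3202 reads (0.389%, 0.375 to 0.402%) and 1845 reads (0.281%, 0.268 to 0.294%). A further 568 models lacked the last introns of a coding chain, with 753 and 735 reads, and 331 models were a single exon, with 743 and 604 reads. The remaining 53 models lacked introns at both ends or had a whole coding chain. The own-chain models were a larger share of the library in replicate 2 and the models without first introns a larger share in replicate 1, with intervals that did not overlap in either case. Single models weighed much in both kinds. Rsrp1-204 gave 189 of the 715 and 299 of the 1012 own-chain reads. Cox4i1-204 gave 1118 of the 3202 and 402 of the 1845 reads without first introns.

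A whole coding intron of at least 30 bases lay inside an exon of 773 models, whereas in 1305 models an exon only entered an intron in part. The remaining 69 models did neither, among them the 41 whose genes have no coding model to compare with. The exon that held the intron had a splice junction on each side in 272 models, which together had 605 reads (0.0734%) in replicate 1 and 894 reads (0.136%) in replicate 2. In the other models with a whole intron it was the first, the last or the only exon, where the tables do not show that a read covered the intron.

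The most abundant model was Cox4i1-204, from Cox4i1 on chromosome 8 (120672590 to 120674113), which encodes a subunit of cytochrome c oxidase in the mitochondrial respiratory chain. It had 1118 reads (1356 CPM) in replicate 1 and 402 reads (612 CPM) in replicate 2, beside 1035 and 439 reads for the coding model Cox4i1-201. Its 3 exons are joined at the last 2 of the 4 splice junctions of Cox4i1-201, and its first exon starts inside the intron upstream. Reads with the last 3 junctions numbered 23 and 16, and reads with the last junction alone 6 and 5. Reads with exactly these 2 junctions were far more frequent than reads with 1 junction more or fewer.

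The same shape was seen in Rpl5 (a protein of the large ribosomal subunit), Fxyd1 (phospholemman, a regulator of the sodium pump) and Pepd (prolidase). Rpl5-204, on chromosome 5, had 135 and 51 reads in replicates 1 and 2 with the last 2 of 7 splice junctions, against 68 and 48 reads with all 7. The other 5 incomplete steps summed to 10 reads. Fxyd1-213, on chromosome 7, had 112 and 42 reads with the last 2 of 7 junctions, against 39 and 16 reads on the whole chain of Fxyd1-212 and 6 reads on the other incomplete steps. Pepd-202, also on chromosome 7, had 47 and 37 reads with the last 2 of 14 junctions, against 100 and 79 reads on the whole chain and 13 reads on the other 12 steps. Micall1-207 (Micall1, an endocytic recycling protein) had 17 and 21 reads, while the whole chain of its coding model had 2 reads in sum.

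**Figure D1:**
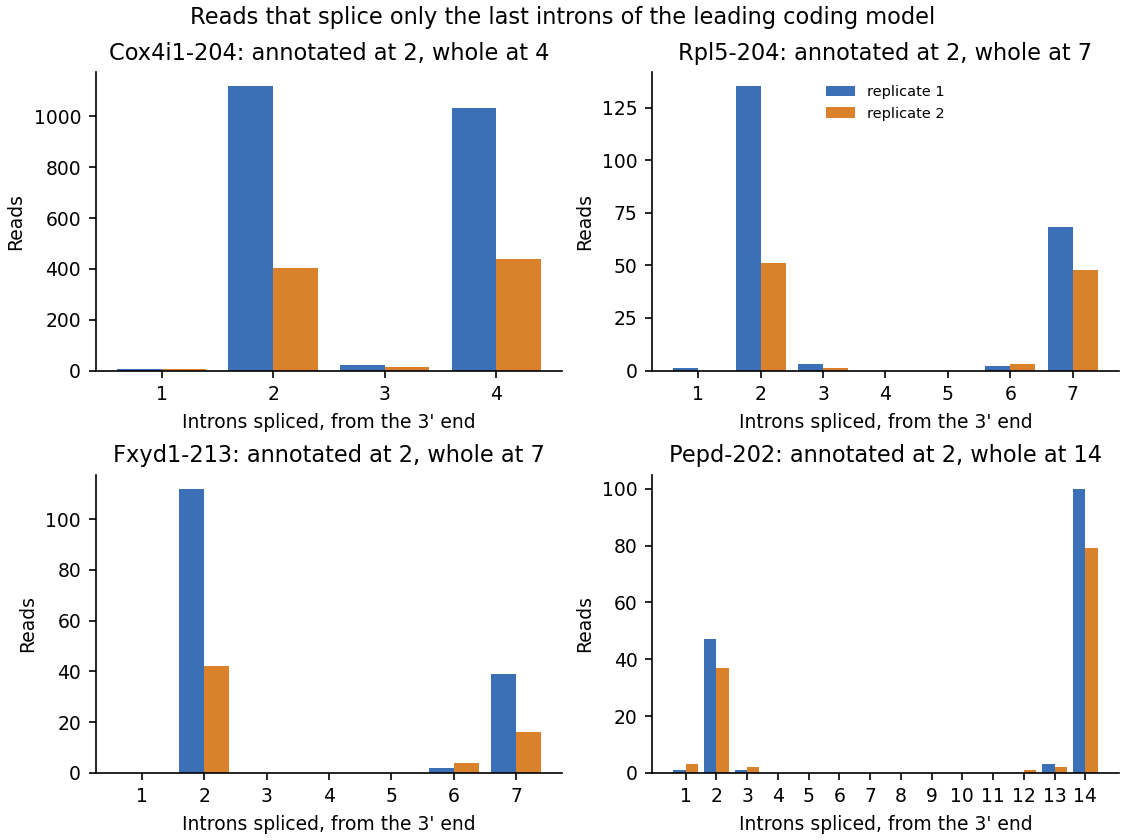
Reads (vertical axis, linear) whose splice junctions are exactly the last ones of the leading coding model, by the number of introns spliced, counted from the 3' end (horizontal axis), for Cox4i1, Rpl5, Fxyd1 and Pepd, with blue bars for replicate 1 and orange bars for replicate 2. In each panel the reads sit mainly at 2 spliced introns, the retained-intron model, and at the whole chain, with few at the other steps.

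Of the 30 models without first introns that had at least 20 reads, 25 had other incomplete steps to compare with, and the retained-intron step held the most reads among the incomplete steps in 20 of them. These models were taken for their read number, so the count is a description. It did not hold for Sparc-205 and Sparc-203 (Sparc, a matrix glycoprotein), with 40 and 20 reads against up to 75 at another step, nor for Slc27a1-205, Slc25a3-204 and Pcolce-209. In 5 of the 30 the shortened chain had more reads than the whole one. All 6 models without last introns that had at least 20 reads also exceeded every other incomplete step: Eprs-204 (Eprs, the glutamyl-prolyl tRNA synthetase) had 40 reads with the first 19 of 31 junctions and 0 at any other of 29 steps.

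Among models with a splice chain of their own, Rsrp1-204 was the most abundant. Rsrp1, on chromosome 4 (134923592 to 134927671), encodes an arginine- and serine-rich protein, and the model keeps intron 3 of 4, of 1302 bases, between splice junctions. It had 189 reads (229 CPM) in replicate 1 and 299 reads (455 CPM) in replicate 2, against 110 and 117 reads for the coding model Rsrp1-201, so the retained form had more reads than the coding form in both libraries. Slc1a5-202 had 31 and 41 reads beside 351 and 250 reads for Slc1a5-201. Ccnl2-205 (Ccnl2, cyclin L2) had 13 and 34 reads beside 20 and 15 for Ccnl2-201, and holds no whole coding intron although its chain is its own. Arglu1-204 (Arglu1, an arginine- and glutamate-rich splicing modulator) had 14 and 26 reads beside 55 and 47 for Arglu1-201, and keeps a 2280-base intron. Clk1-212 (Clk1, a kinase of SR proteins) had 9 and 16 reads of 18 and 32 for the whole gene, which was below 20 reads in replicate 1.

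Among the 15 most abundant models were also Pgp-202, Hes6-202, Ndufa7-204, Rex1bd-207, Psmb6-202 and Ppm1a-208. Pgp-202 had 116 and 98 reads, Ndufa7-204 (Ndufa7, a subunit of respiratory complex I) had 57 and 24, and Rex1bd-207 had 62 and 17. Psmb6-202 (Psmb6, a catalytic proteasome subunit) had 50 and 18 reads, and Ppm1a-208 (Ppm1a, a protein phosphatase) had 28 and 31. Each was below its leading coding model in both libraries except Rex1bd-207, which had 62 reads in replicate 1, equal to the 62 of Rex1bd-201. Ribosomal protein genes and Cox4i1 have near-identical processed pseudogenes, and the sources used here do not say how reads shared with them were counted.

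**Figure D2:**
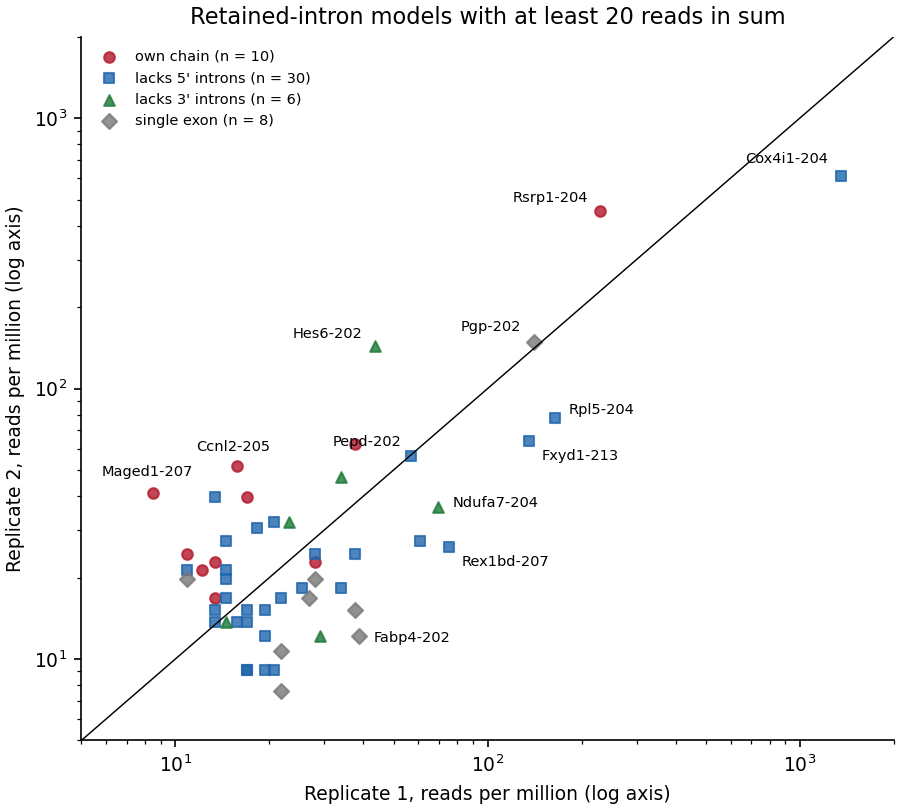
CPM in replicate 1 (horizontal) and replicate 2 (vertical), both on log axes, for the 54 retained-intron models with at least 20 reads in sum, marked by the kind of splice chain, with the line of equal levels. TMM-scaled ratios are not plotted: 9 of the 10 own-chain models have one above equality, and 7 of the 8 single-exon models one below. Of these 7, Pgp-202 lies above the plotted line, at 141 CPM in replicate 1 and 149 in replicate 2.

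The share of a gene's reads that fell on these models was computed for genes with 20 reads or more per library. Of 5334 such genes, 3423 have an annotated retained-intron model and 1210 had reads on one. The median share over those 1210 was 1.37%, with quartiles of 0.677 and 2.96%. Since a gene entered through at least 1 such read, these shares have a floor set by depth. Across the 1210 genes the shares in the libraries had a Pearson coefficient of 0.807 and a Spearman coefficient of 0.136, which describe genes within 1 pair of libraries and are not tests.

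A share of at least 10% in each library was reached in 53 genes, all protein coding, and of at least 50% in 3, Ss18l2, Rsrp1 and Micall1. Ss18l2, whose product is named for its likeness to SS18, had 40 of 64 reads (62.5%, interval 50.3 to 73.3%) in replicate 1 and 19 of 31 (61.3%, 43.8 to 76.3%) in replicate 2 on its retained-intron models. Rsrp1 had 55.6% (50.3 to 60.8%) and 66.4% (62.0 to 70.7%), and these intervals did not overlap. Micall1 had 19 of 36 (52.8%) and 28 of 48 (58.3%). Rpl5 followed with 64.2 and 49.0%, Cox4i1 with 50.5 and 46.0%, Fxyd1 with 112 of 224 and 42 of 94 reads and Ppdpf with 55.2 and 36.1%. Ngrn had 12 of 49 and 18 of 39 reads. Just inside the limit stood Psmb6, with 50 of 315 and 18 of 180 reads, and just outside it Commd4, with 15.4 and 9.52%.

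**Figure D3:**
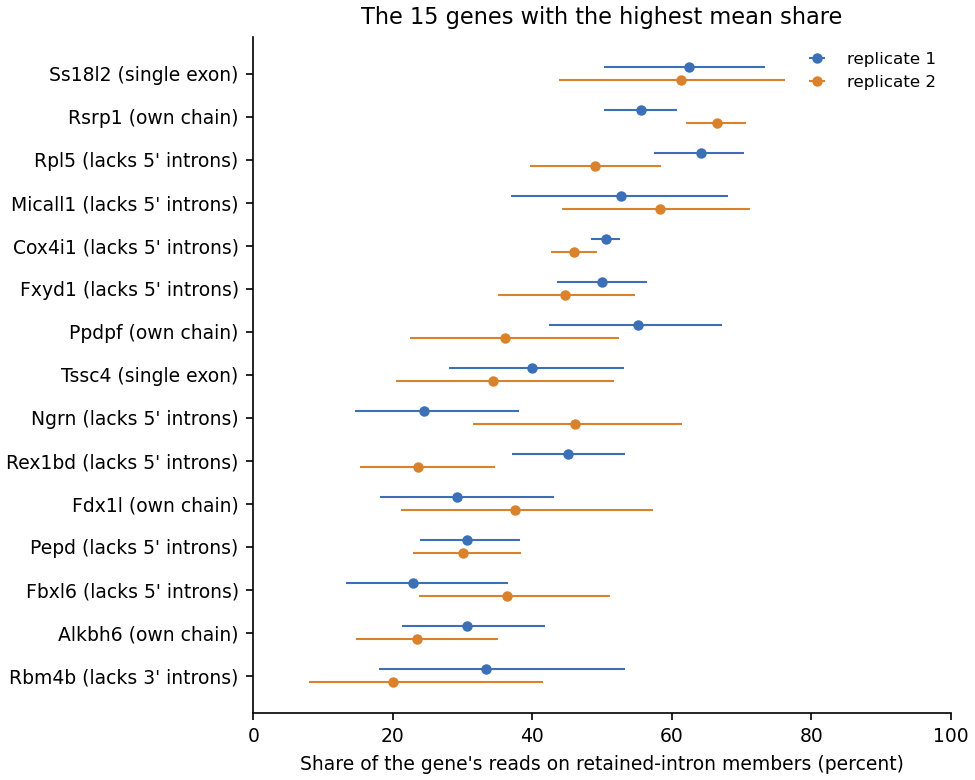
Share of the gene's reads on retained-intron models (horizontal, percent) in replicate 1 (blue) and replicate 2 (orange) for the 15 genes with the highest mean share, with Wilson 95% intervals, and the kind of the leading model in parentheses. Shares run from 61.9% on average in Ss18l2 to 26.7% in Rbm4b. The intervals of Rsrp1 and Rex1bd do not overlap, but neither leading model passed the adjusted test of share.

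The 53 genes divided by their leading model. In 19 it lacked first introns: beside Rpl5, Cox4i1, Fxyd1 and Pepd these included the proteasome gene Psmb6, the clock-output transcription factor gene Tef, the RNA-binding gene Stau1 and the vesicle genes Snapin and Trappc4. In 10 it lacked last introns, among them Eprs, Ndufa7, Hes6, Ppm1a and the cap methyltransferase gene Pcif1. In 9 it was a single exon, among them Ss18l2, Tssc4, Pgp, the transcription factor gene Atf4 and the mitochondrial ribosomal gene Mrpl57. In 15 it had its own chain, and in 11 of those the leading model held an intron between splice junctions: Rsrp1, Ppdpf, Fdx1l (a ferredoxin of iron-sulfur cluster assembly), Alkbh6, Arglu1, Mdp1, Chkb (choline kinase beta), Spout1, Mrps26, Akap8l and Irf3 (an interferon regulatory factor). Fdx1l had 14 of 48 reads (29.2%, interval 18.2 to 43.2%) in replicate 1 and 9 of 24 (37.5%, 21.2 to 57.3%) in replicate 2. Alkbh6 had 23 of 75 (30.7%, 21.4 to 41.8%) and 15 of 64 (23.4%, 14.7 to 35.1%).

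Shares were then read by gene list, over the genes of each list with 20 reads per library, beside a pooled share over all genes of 0.654% in replicate 1 and 0.623% in replicate 2. The lists were drawn up with earlier results of these libraries known, and their shares carry no test. That all-gene share also counts genes with no such model annotated, which are fewer in the SR, kinase and core spliceosome lists. Over annotated genes alone the mean share was 1.10% for all 3423, 2.87% for 19 SR genes and 5.11% for 5 kinase genes. It was 1.14% for 24 core spliceosome genes and 0.551% for 16 hnRNP genes. CLK, SRPK and DYRK kinases, several of which phosphorylate splicing factors, had 12 of 184 reads (6.52%) and 8 of 205 (3.90%) on these models, of which Clk2 gave 5 and 4 reads and Clk4 gave 5 and 1. SR proteins and related regulators had 1.09 and 2.18%, with 13 of 19 annotated genes read, and Srsf7 led with 3 of 40 and 8 of 37 reads. Luc7l had 3 of 26 and 3 of 29, and Snrnp70 (a U1 snRNP protein) had 8 of 86 and 12 of 103. Core spliceosome genes had 1.14 and 0.787%, and hnRNP genes 0.203 and 0.362%. U2af1 (a subunit of the factor that binds the 3' splice site) had 5 of 111 and 6 of 61 reads, and Rnps1 (an exon junction protein) 2 of 34 and 3 of 37. Nonsense-mediated decay and exon junction genes had 1.43 and 1.47%, and chromatin and transcription genes 2.79 and 6.44%, of which Ccnl2 gave 13 of 16 reads and 36 of 38.

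Circadian clock genes had 39 of 676 reads (5.77%) and 56 of 802 (6.98%). Tef had 17.9 and 18.8% and Dbp 5.09 and 10.5%, both PAR bZIP transcription factors. The repressor genes Bhlhe40 and Nr1d2 had 16.7 and 17.1% in replicate 1 but 6.52 and 3.85% in replicate 2. The leading models Tef-207 and Dbp-205 lacked first introns and held no whole coding intron. That of Nr1d2 had part of a coding chain and that of Bhlhe40 was a single exon, so shortened coding transcripts were not told apart here. Oxidative phosphorylation genes had 4.73 and 3.61%, of which Cox4i1 gave 1124 of 1188 reads and 408 of 452. Ribosomal protein genes had 1.15 and 1.18%, with Rpl5 giving 136 of 224 and 51 of 129 reads and Rpl10a 14 and 17. Pde8b, a cAMP phosphodiesterase gene, had 7 of 37 and 1 of 55 reads. Genes of hormone making had few such reads. Steroidogenesis and cholesterol delivery genes had 14 of 73374 reads (0.0191%) and 13 of 62454 (0.0208%), led by Soat1 with 11 and 4. Many of these genes have no such model annotated, and over the 10 that do the mean share was 0.301% and the median 0.0159%, beside a mean of 1.10% and a median of 0 over all 3423 annotated genes. Chromaffin cell genes had 0 of 13835 and 0 of 11501 reads, and 5 of their 20 genes with enough reads have such a model annotated, against 10 of 23 for the steroidogenesis list.

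Introns that lay whole inside an exon were shorter than the other introns of the same genes. The median length of the whole ones was 270 bases, with quartiles of 120 and 687, against 622 bases in the 6497 other introns of the same genes' coding models and 1445 bases over all 224304 introns of coding models. Introns under 150 bases made up 31.4% of them and 21.1% of the other introns, and introns over 1000 bases 16.0 and 38.9%. When introns that an exon enters only in part were added, the median over both kinds was 1056.5 bases, above the 622 and below the 1445 bases. The added introns include introns of further genes, and they were not compared alone with other introns of their genes. A short intron fits whole inside an exon more easily than a long one. In genes with 20 reads per library the introns of read models had a median of 269 bases, and those of the 7539 annotated retained-intron models without reads had 228 bases.

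**Figure D4:**
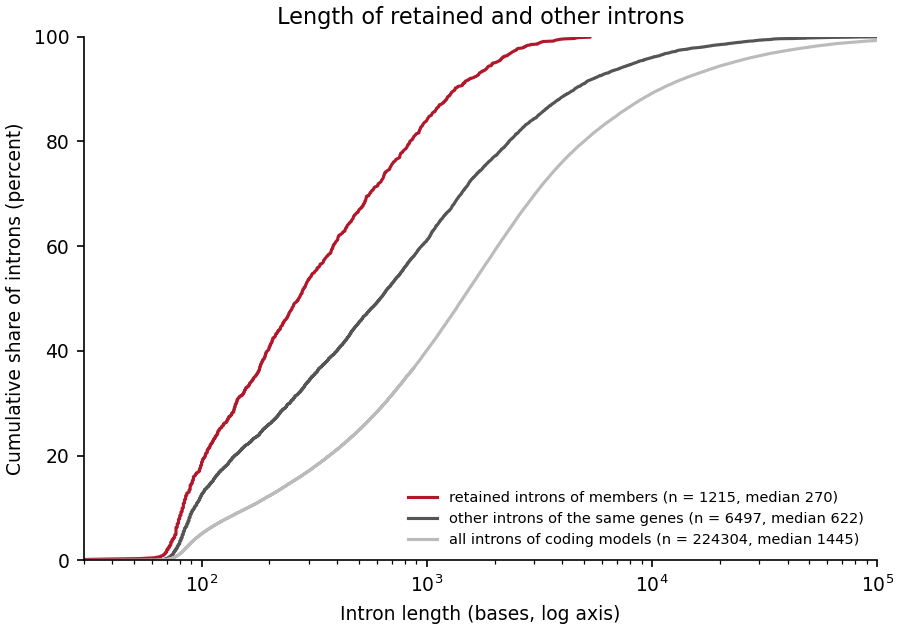
Cumulative share of introns (vertical, percent) by length in bases (horizontal, log axis) for the 1215 retained introns that lie whole inside an exon, the 6497 other introns of the same genes and all 224304 introns of coding models. The retained introns lie to the left, with a median of 270 bases against 622 and 1445. With introns entered in part added to them, the median over both kinds is 1056.5 bases.

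By place, 159 of the 925 retained introns in leading coding models (17.2%) were the first intron, compared with 509 of 5187 other introns (9.81%), and their median length there was 348 bases against 1552. The coding region held 96.0% of the retained introns and 95.5% of the others. Among models with at least 20 reads the shortest retained introns were the 69-base introns of Ftl1-205 and Mdp1-202 and the 71-base intron of Slc1a5-202. The longest were those of Eprs-204 (2431 bases), Fabp4-202 (2316 bases) and Arglu1-204 (2280 bases). Of these only the Arglu1 intron lies between splice junctions. That of Eprs-204 is in its last exon and that of Fabp4-202 in its single exon.

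For each intron, reads of any model that held it inside an exon were set against reads that spliced it. With at least 20 such reads per library, 753 introns of these models had a median retention of 4.30%, with quartiles of 1.58 and 11.5%. At least 10% in each library was reached by 147. Other introns of coding models had a median of 0 and reached 10% in 607 of 42319 cases, but a read on the model was needed for the first set, so this contrast follows from the choice. A part of the introns was an intron in a minor coding model only: 65 of the 753 were not in the leading coding model, with a median retention of 94.5%, and 21 of these were never seen spliced. The 69-base Ftl1 stretch (Ftl1, the ferritin light chain), held by 1466 and 995 reads and spliced by 0, was one of them. Among the 688 introns of leading models the median was 3.87%, 91 reached 10% in each library and 3 reached 50%.

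Reads of other models were then taken alone. When the read retained-intron models were left out, 461 of 667 of their introns in leading models (69.1%) were still held by another model's read. Of 3368 other introns in the leading models of the same genes, 1139 (33.8%) were. Holding reads were summed over introns, so a read that held several introns counted once for each. For the retained introns they came chiefly from new combinations of known sites (1822) and incomplete splice matches (1340). An incomplete splice match can be a shortened form of a retained-intron model that was left out, and such reads were not told apart. The pooled share of reads that held the intron ran the other way, at 1.13% in replicate 1 and 2.82% in replicate 2 for the retained introns against 4.67 and 3.40% for the others. By the same count over introns, the genomic class gave 295 for the retained introns and 33557 for the others. Both libraries had such a read for 272 (40.8%) of the retained introns and 483 (14.3%) of the others. Among introns under 150 bases in any coding model the shares with a read were 73.5% of 245 retained introns and 51.2% of 867 others.

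When only exons with a splice junction on each side were counted, retention was lower. The median of 690 introns was 0.362%, 316 had no such read, and 54 reached 10% in each library, of which 45 were introns of leading coding models. Other introns of coding models reached it in 111 of 41906 cases, a contrast that again follows from the choice of models by their reads. Intron 3 of Rsrp1 was held by 194 of 308 reads in replicate 1 (63.0%, interval 57.5 to 68.2%) and by 304 of 423 in replicate 2 (71.9%, 67.4 to 75.9%). A 1443-base intron of Akap8l (an A-kinase anchor protein-like gene) was held by 29 of 42 reads (69.0%) and 40 of 60 (66.7%). Most of these holding reads, 22 of 29 and 30 of 40, were on models other than the read retained-intron models. The 202-base Alkbh6 intron printed above was held in 38.8 and 33.9%, and the 71-base Slc1a5 intron in 8.63 and 14.8%. The 2280-base Arglu1 intron was held in 19.4 and 35.6%. An 874-base intron of Srsf7 (an SR protein) was held by 10 of 38 reads in replicate 1 and 12 of 30 in replicate 2. Of these holding reads 7 and 4 were on other models. For Hes6-202 no read held the intron in this way, since its last exon carries it.

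**Figure D5:**
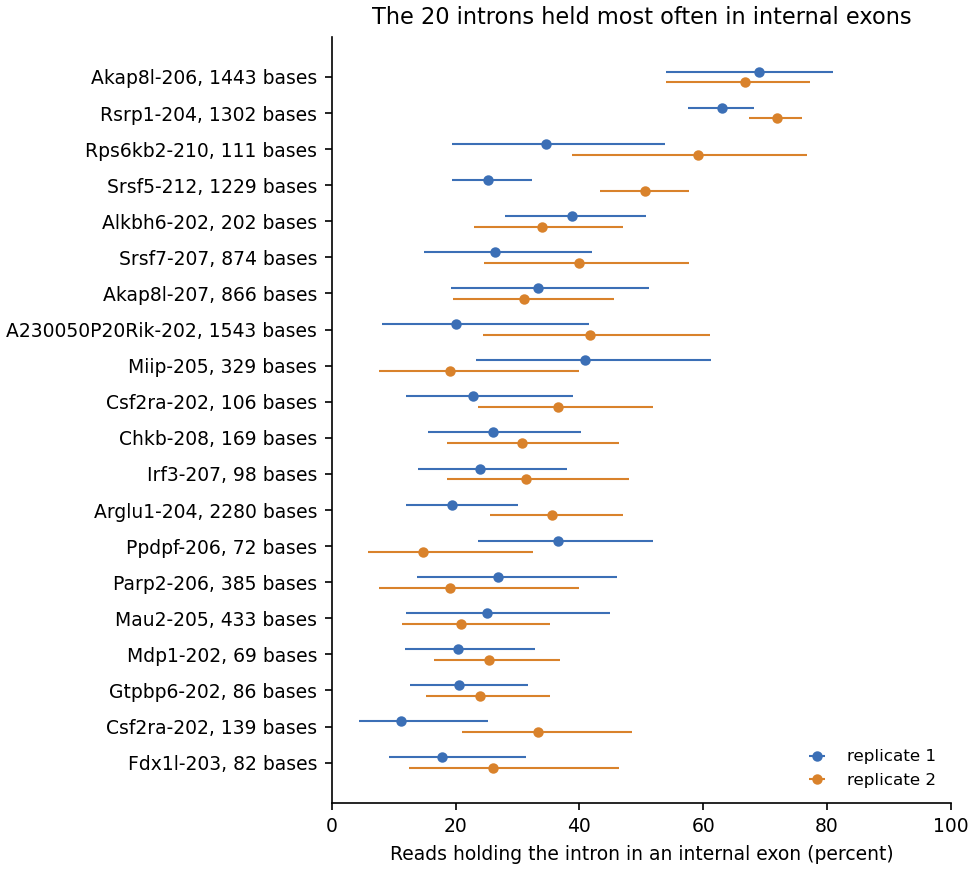
Share of reads (horizontal, percent) that hold the intron in an exon with splice junctions on both sides, out of these and the reads that splice it, in replicate 1 (blue) and replicate 2 (orange) with Wilson 95% intervals, for the 20 introns of leading coding models with the highest mean. Labels name a retained-intron model that keeps the intron, but reads of any model are counted. The introns of Akap8l-206 and Rsrp1-204 lie above 60% in both libraries, and the other 18 have lower means, from Rps6kb2-210 at 46.9% down.

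Differences between the libraries were tested by exact tests, since a single group allows no contrast of conditions. For the share of the gene, 1 of 1460 retained-intron models passed an adjusted p of 0.05 in Fisher's exact test with a difference of at least 10 points, beside 0.145% of all 11013 models tested. It was Hes6-202, with 94 of 407 reads (23.1%) in replicate 2 and 36 of 319 (11.3%) in replicate 1 (adjusted p = 0.0206, two-sided exact test with Benjamini-Hochberg adjustment). This call was lost when reads of known models alone were counted, where 0 retained-intron models passed. Ccnl2-205 had 34 of 131 reads in replicate 2 and 13 of 126 in replicate 1 and did not pass (adjusted p = 0.250, same exact test).

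For the level, 11 of the 54 retained-intron models with at least 20 reads passed a two-sided exact binomial test with a ratio of at least 2-fold, beside 3.85% of all 7022 annotated models tested. Higher in replicate 2 were Hes6-202, Maged1-207, Ccnl2-205 and Dbp-205, and lower in replicate 2 were Cox4i1-204, Rpl5-204, Fxyd1-213, Rex1bd-207, Fabp4-202, Psmb6-202 and Ndufa7-204. Only Hes6-202 also passed for the share of its gene. Whole-gene reads in replicates 2 and 1 were 887 and 2224 for Cox4i1, 104 and 212 for Rpl5, and 94 and 224 for Fxyd1. Rex1bd had 72 and 142, Fabp4 320 and 1107, Psmb6 180 and 315, and Ndufa7 165 and 362. Hes6 had 407 and 319, Maged1 344 and 318, Ccnl2 131 and 126, and Dbp 247 and 216. The genes of the lower models thus also had fewer reads as a whole, beyond the difference in library totals (656786 and 824186). Hes6-202 had 143 CPM in replicate 2 and 43.7 in replicate 1, a log2 ratio of 1.59 on TMM-scaled values (adjusted p = 8.17e-08, exact binomial test). Cox4i1-204 had 612 CPM in replicate 2 and 1356 in replicate 1, a log2 ratio of -1.25 (adjusted p = 1.35e-52, same exact test). Maged1-207 (Maged1, a gene of the MAGE family) had 27 reads in replicate 2 against 7 in replicate 1, and Dbp-205 had 26 against 11. Ndufa7-204, with 24 reads in replicate 2 against 57 in replicate 1, stood just past the 2-fold limit with TMM scaling. Scaled by library total it was under that limit, at 36.5 CPM in replicate 2 against 69.2 in replicate 1, and 10 models passed. Rsrp1-204 had 455 CPM in replicate 2 and 229 in replicate 1, a log2 ratio of 0.89 that stayed under the 2-fold limit.

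These level differences moved with model length and with other markers. Annotated models under 1000 bases had a median log2 ratio of -0.65 and those of 2000 bases or more 0.13, and the 23 retained-intron models under 1000 bases had -0.73 against 0.39 for the 16 of 2000 bases or more. All 5 adipocyte markers were lower in replicate 2, with a summed level of 9425 CPM there and 16381 in replicate 1, and both red blood cell markers were too, at 673 and 1572. Fabp4, the fatty acid binding protein of adipocytes, is one of these markers, and Fabp4-202 had 8 reads in replicate 2 against 32 in replicate 1. The part of length and of these cells in the differences was not tested, and in bulk tissue fewer cells of a type and less RNA per cell cannot be told apart.

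For intron retention, 3 of 753 introns passed Fisher's exact test with a difference of at least 10 points, beside 0.0534% of all 43072 introns tested, and all 3 were higher in replicate 2. The 1229-base intron of Srsf5 (an SR protein), at chromosome 12 from 80947866 to 80949094, was held in 51.1% (95 reads) in replicate 2 and 25.3% (43 reads) in replicate 1 (adjusted p = 0.000684, exact test). With internal exons alone it had 50.5% in replicate 2 and 25.3% in replicate 1 and passed again (adjusted p = 0.00394, exact test). Most of these reads were on new combinations of known sites, 71 in replicate 2 and 32 in replicate 1, and 14 and 5 were on the retained-intron model Srsf5-212.

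The other 2 were overlapping introns of Mtfr1l (a mitochondrial fission regulator-like gene) on chromosome 4, of 2497 and 2329 bases. They were held in 44.7 and 38.3% in replicate 2, against 1.94 and 2.44% in replicate 1. They rested on 1 splice chain of 5 introns with 46 reads in replicate 2 against 52 in replicate 1, so reads with the chain itself were of similar number. The outer exon that the deposited annotation gives to this chain covered the introns in replicate 2 and not in replicate 1, and with internal exons alone neither intron passed.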

How the data were processed

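For each of 2 libraries the authors deposited raw read counts by transcript model, with no normalization, and the models' exons. Per the deposited notes the build is mm10 and the annotation GENCODE M21 with spike-in sequences. TALON is the program named in the annotation files, per the file headers and fields. Not given in the sources used here were the aligner, the platform and any version.

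Reads on ERCC sequences were set aside and reads were summed per gene over all TALON classes. Levels are given as CPM, the read count scaled by the library total without spike-ins. A count of 0 allows up to 3 reads, 3.64 CPM in replicate 1 and 4.57 CPM in replicate 2. Wilson 95% intervals and this floor cover counting error only. A retained intron is an intron of at least 30 bases of a coding model that lies whole inside an exon of a retained-intron model. The leading coding model of a gene is its coding model with most reads.

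Shares and intron retention were compared between the libraries by Fisher's exact test (scipy 1.17.1) and levels by an exact binomial test on totals scaled by TMM (edgeR 4.0.16, R 4.3.3), all two-sided, with Benjamini-Hochberg adjustment over all features tested. The tests were checked on simulated counts that held counting error only, so the check cannot show calls made by further spread between libraries. DESeq2 1.42.0 size factors were an alternative scaling. Log2 ratios are replicate 2 over replicate 1 on CPM with 1 added, and TMM against totals shifts them by -0.10. With 1 group of 2 libraries the edgeR quasi-likelihood test could not be fitted.

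Most names in the text come from a rule, not all of whose names are described: the 15 models of highest mean level, the 15 genes of highest mean share, up to 10 calls in each direction, the 4 genes of highest share in each gene list with at least 5 such reads, and the 3 shortest and 3 longest introns of models with at least 20 reads. Genes named in the paragraphs on high-share genes, on introns in internal exons and on incomplete chains, and Clk1, Lefty1, Fau, Car3 and Hba-a1, go beyond it and were chosen after their values were seen. The models, lists and rules were chosen with earlier results of these data known, and the division by splice chain, exon position and intron length was added after the data were seen. A model that this rule names is not reported here.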

Additional observations from a re-analysis of the deposited data

How the results depend on the processing

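The 2147 models became 346 with at least 5 reads in sum, 729 with reads in each library, 351 with their own splice chain, 280 with their own chain and a whole intron, and 1427 to 1449 with 1 library left out. Their share of reads (0.655%) was 0.851% of known-model reads, 0.682% without genomic reads, 0.563% without single-exon models, 0.120% for own chains and 0.105% for own chains with a whole intron. The median share of the gene (1.37%) was 1.79% at 10 reads per library, 0.847% at 50 reads, and 1.10 to 1.41% with 1 library left out. The 53 high-share genes became 93 at 10 reads, 27 at 50 reads, 14 for own chains, 10 for own chains with a whole intron, 121 at a limit of 5%, 10 at a limit of 25%, and 84 to 86 with 1 library left out. The median intron length (270 bases) was 1056.5 when introns entered in part were added. With known models only, 0 retained-intron models passed for share and 0 introns for retention. The introns passed numbered 7 with no minimum difference and 1 with internal exons alone. The remaining alternatives kept each value within its spread or each count within 1.5 times. The divisions by own chain and internal exon were chosen after seeing the data. No paired analysis was possible because the 2 libraries form 1 group, and calls between libraries need both, so neither could be left out there. With 1148 models at a single read, depth limits which rare models are seen.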

Other observations

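Lefty1-202 was the only model of its gene with reads among the coding and retained-intron models: Lefty1, a secreted TGF-beta family antagonist, had 16 reads in replicate 1 and 8 in replicate 2, all on this 2-exon model, and 0 on the coding model Lefty1-201. The gene had fewer than 20 reads in each library and so entered no share. Fau-207 carried the whole intron chain of a coding model of Fau, a ribosomal protein fusion gene, with 11 and 8 reads in replicates 1 and 2.

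Models of an adipocyte and a blood marker gene also had at least 20 reads. Car3-202 (carbonic anhydrase 3) had 9 reads in replicate 2 and 12 in replicate 1, and Hba-a1-202 (alpha globin) had 6 and 16.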
